A study of Homo sapiens with 4 samples.

Results

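Aldehyde dehydrogenases are enzymes that oxidize aldehydes to carboxylic acids, and the 9 genes described here are ALDH1A1, ALDH1A2, ALDH1A3, ALDH1B1, ALDH2, ALDH3A1, ALDH3A2, ALDH3B1 and ALDH7A1. They were taken by symbol, and every probe set that a probe-to-gene table maps to these symbols was used, which gave 18 probe sets for 9 of the 19775 genes with a probe set of their own. The 3 ALDH1A enzymes make retinoic acid from retinaldehyde. ALDH1A1 activity is widely used to isolate stem-like cells from tumors, and ALDH3A1 is known for its high level in airway cells of smokers. The family bears on this study because the study asked whether nicotine, acting through β-arrestin-1, favors stem-like lung cancer cells.

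RNA came from A549 cells, a human lung adenocarcinoma line, hybridized to 4 Human Genome U133 Plus 2.0 arrays of Affymetrix. The 4 conditions were ARRB1 siRNA with nicotine, ARRB1 siRNA serum starved, control siRNA with nicotine and control siRNA serum starved. All cells were transfected and then kept without serum for 36 h, and the nicotine groups received 1 µM nicotine for 24 h. For RT-PCR the study's text gives a higher dose than this 1 µM. It does not say whether the starved groups of the arrays were also kept for those 24 h, so time in culture may differ. Each condition had 1 array, so no difference has a replicate check and no test between conditions was made. Depletion by siRNA is transient and partial. The labels name the siRNA target only as beta arrestin, and the study's text names it as ARRB1. ARRB1, which encodes β-arrestin-1, had signals of 224 and 191 on its brightest probe set in nicotine treated and starved ARRB1 siRNA cells, against 331 and 352 in nicotine treated and starved control cells. Of its 7 probe sets, 6 were lower with ARRB1 siRNA in both pairs. The exception was the next brightest, 221861_at, with 194 and 233 in nicotine treated and starved ARRB1 siRNA cells, against 180 and 224 in nicotine treated and starved control cells. Epithelial keratins KRT8, KRT18 and KRT7 and the adhesion genes EPCAM and CDH1 had signals of at least 384 on every array, and of 9 measured markers of blood, endothelial and fibroblast cells, 2 (PECAM1 and COL1A1) passed the limit for expression given below.

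Values are linear MAS5 signals, the probe set summary of the Affymetrix software, scaled on each array to a trimmed mean of 500.1. Differences are log2 differences between a pair of arrays, and a gene counts as different at 2-fold or more, the limit that the submitters name. A gene is represented by its brightest probe set and counts as expressed when its mean signal reaches 66.3, the median of all probe sets, which 12521 genes did. Of the 9 aldehyde dehydrogenase genes, 8 were expressed and ALDH1A2 was not. Since no replicate exists, each difference is set beside those of the 500 probe sets nearest in signal, by their median and SD. Signals of different probe sets are not comparable as RNA levels, so levels are ordered only across arrays.

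The promoters of the 3 retinaldehyde dehydrogenase genes are shown because these enzymes share a reaction while their signals, given next, ran differently across the arrays. Each is the 250 bases before the annotated gene start, from RefSeq on GRCh38.p14, with CCAAT boxes and GC boxes (GGGCGG), searched on both strands, in capitals. They lie on the minus strand for ALDH1A1 (chr9:72953054-72953303) and ALDH1A2 (chr15:58065712-58065961), and on the plus strand for ALDH1A3 (chr15:100879581-100879830).
ALDH1A1: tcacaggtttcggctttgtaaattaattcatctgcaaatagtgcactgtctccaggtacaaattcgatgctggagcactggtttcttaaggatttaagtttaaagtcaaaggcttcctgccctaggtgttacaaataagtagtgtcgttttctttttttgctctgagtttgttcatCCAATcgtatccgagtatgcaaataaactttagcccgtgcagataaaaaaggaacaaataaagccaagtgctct
ALDH1A2: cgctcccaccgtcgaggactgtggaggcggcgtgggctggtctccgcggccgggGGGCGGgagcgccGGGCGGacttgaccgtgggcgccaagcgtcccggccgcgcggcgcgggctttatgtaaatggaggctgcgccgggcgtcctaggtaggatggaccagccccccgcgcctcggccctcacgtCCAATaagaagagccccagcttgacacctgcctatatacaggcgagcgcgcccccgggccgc
ALDH1A3: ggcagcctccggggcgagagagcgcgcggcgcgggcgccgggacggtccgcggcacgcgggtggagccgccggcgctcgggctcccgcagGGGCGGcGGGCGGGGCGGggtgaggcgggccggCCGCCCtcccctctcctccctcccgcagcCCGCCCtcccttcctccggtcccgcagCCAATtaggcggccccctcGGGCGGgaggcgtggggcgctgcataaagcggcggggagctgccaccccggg
ALDH1A1 had 1 CCAAT box, 74 bases before its start, and no GC box, and 38.4% of the bases were G or C. ALDH1A2 had 1 CCAAT box, 62 bases before the start, and 2 GC boxes, at 72.8% G and C. The 250 bases before a second annotated start of ALDH1A2 (chr15:58014024-58014273) held neither motif, at 41.6% G and C. ALDH1A3 had 1 CCAAT box, 71 bases before the start, and 6 GC boxes, of which the pair at 153 and 148 bases shares 1 base, at 82.4% G and C. Of the 35116 promoters in the same table, 32.0% held a CCAAT box and 42.6% a GC box in the same window, so neither motif is particular to these genes. Any link of the motifs to the signals was not tested. Of the 9 genes, 7 had an entry in this table, and the others were ALDH2 and ALDH3A1.

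ALDH1A3, the retinaldehyde dehydrogenase that carries much of the aldehyde dehydrogenase activity in several cancers, had the widest range of the 8 expressed genes. Its probe set 203180_at had signals of 286 and 258 in nicotine treated and starved ARRB1 siRNA cells, and of 264 and 402 in nicotine treated and starved control cells. The serum starved control array thus stood above the other 3, which lay between 258 and 286. With nicotine in control siRNA cells the log2 difference was -0.61, where probe sets of like signal had a median of 0.00 and an SD of 0.31. With ARRB1 siRNA in serum starved cells it was -0.64, beside a median of -0.06 and an SD of 0.35. Both differences use the serum starved control array. The pairs without that array differed by 0.15 (nicotine in ARRB1 siRNA cells) and 0.11 (ARRB1 siRNA in nicotine treated cells), each less than the SD of like probe sets. The second ALDH1A3 probe set, 1558649_at, ran otherwise, with 69.2 and 13.9 in nicotine treated and starved ARRB1 siRNA cells, and 20.1 and 8.0 in nicotine treated and starved control cells. It was highest where 203180_at was not, its signals lay below the array median on 3 of 4 arrays, and like probe sets had SDs of 1.37 to 1.51. When both probe sets are averaged, the difference with nicotine in control siRNA cells turns to 0.36 and that with ARRB1 siRNA in starved cells to 0.08, so the lower signals of ALDH1A3 rest on 203180_at.

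ALDH1A1, the cytosolic retinaldehyde dehydrogenase and common stem cell marker, was measured by 212224_at alone. Its signals were 27356 and 24497 in nicotine treated and starved ARRB1 siRNA cells, against 21948 and 18640 in nicotine treated and starved control cells. Both ARRB1 siRNA arrays stood above both control siRNA arrays, and with each siRNA the nicotine array stood above the starved array. The log2 differences with ARRB1 siRNA were 0.32 in nicotine treated and 0.39 in serum starved cells, and those with nicotine were 0.16 in ARRB1 siRNA and 0.24 in control siRNA cells. Very bright probe sets moved the same way as a class, since those of like signal had median differences of 0.29 and 0.22 in the same 2 ARRB1 siRNA comparisons and of 0.22 and 0.16 in the same 2 nicotine comparisons. Relative to these medians ALDH1A1 differed by 0.18 with ARRB1 siRNA in serum starved cells, more than the SD of 0.12 there, and by 0.03 with ARRB1 siRNA in nicotine treated cells. With nicotine it differed from them by -0.06 in ARRB1 siRNA and 0.08 in control siRNA cells. After quantile normalization the differences with ARRB1 siRNA were 0.00 in nicotine treated and 0.18 in serum starved cells. Those with nicotine were then -0.11 in ARRB1 siRNA and 0.07 in control siRNA cells. The size of each of these differences thus depends on the scaling, and with nicotine in ARRB1 siRNA cells so does the direction.

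ALDH3A1, which clears lipid and other reactive aldehydes and is known to be inducible through the aryl hydrocarbon receptor, had the same order of arrays on its only probe set, 205623_at. The signals were 20153 and 16767 in nicotine treated and starved ARRB1 siRNA cells, against 16095 and 15437 in nicotine treated and starved control cells. The nicotine treated ARRB1 siRNA array stood apart from the other 3. Its log2 differences were 0.32 with ARRB1 siRNA in nicotine treated cells and 0.27 with nicotine in ARRB1 siRNA cells, and like probe sets had medians of 0.25 and 0.17 in these comparisons. Relative to probe sets of like signal, ALDH3A1 was within 0.09 on the log2 scale in all 4 comparisons. After quantile normalization the 4 differences lay between -0.11 and 0.08. For this gene the higher signals were thus of the size shared by probe sets as bright.

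**Figure D1:**
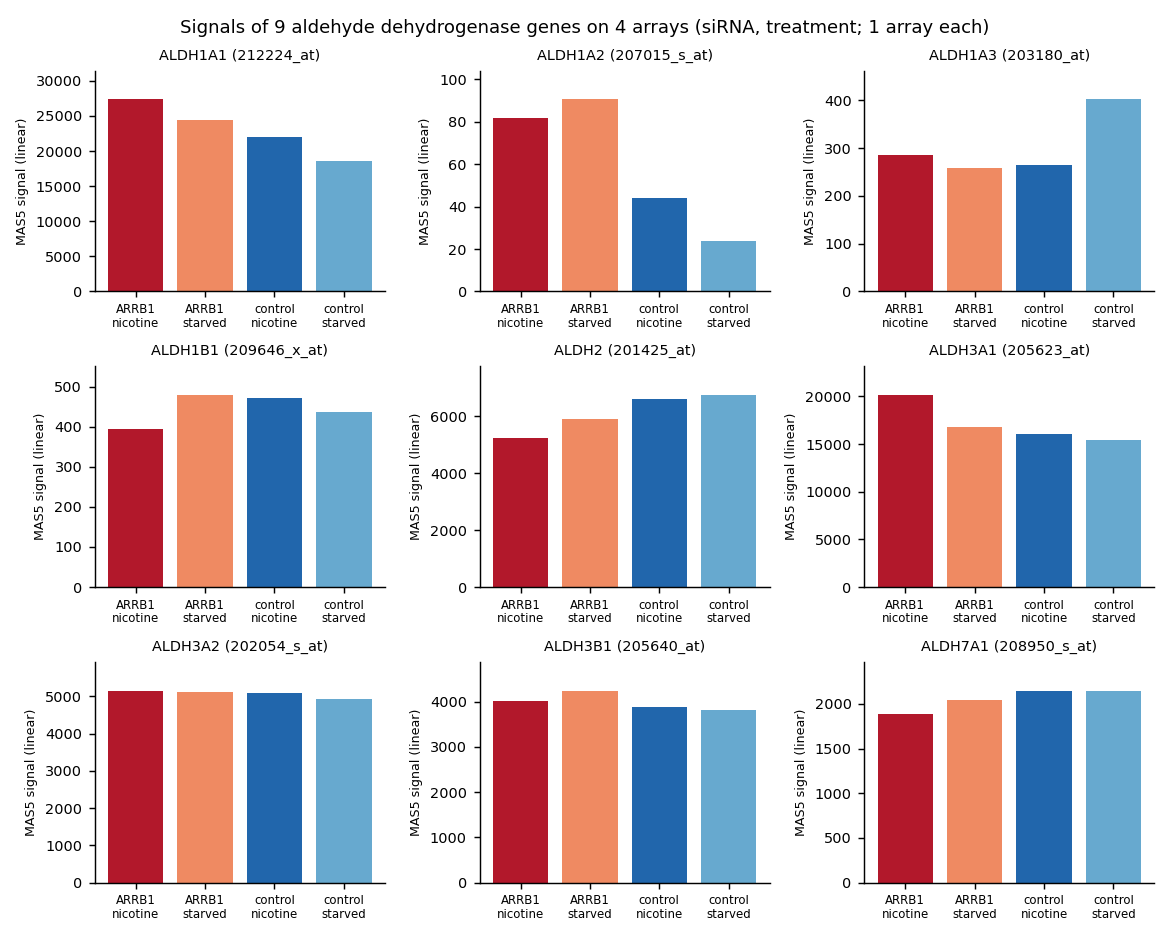
Linear MAS5 signal (vertical axes, each from 0) of the brightest probe set of each aldehyde dehydrogenase gene on the 4 arrays (bars, 1 array each, no error bars since there are no replicates). ALDH1A3 is highest in serum starved control cells at 402, ALDH1A1 is highest in nicotine treated ARRB1 siRNA cells at 27356, and ALDH3A2 and ALDH3B1 are nearly level.

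ALDH1A2, the retinaldehyde dehydrogenase of the early embryo, was dim. Its brighter probe set, 207015_s_at, had 81.7 and 90.6 in nicotine treated and starved ARRB1 siRNA cells, against 44.1 and 23.6 in nicotine treated and starved control cells. The ARRB1 siRNA arrays lay above their array medians of 69.0 and 72.4, and the control siRNA arrays lay below theirs of 73.3 and 68.6. The log2 differences with ARRB1 siRNA were 0.89 in nicotine treated cells and 1.94 in serum starved cells, where probe sets as dim had SDs of 0.81 and 0.80. With nicotine the log2 difference was -0.15 in ARRB1 siRNA cells and 0.90 in control siRNA cells. The other probe set, 207016_s_at, had 5.51 and 6.43 in nicotine treated and starved ARRB1 siRNA cells, and 8.31 and 8.94 in nicotine treated and starved control cells. Its signals lay below the array median on all 4 arrays, and its log2 differences with ARRB1 siRNA, -0.59 in nicotine treated and -0.48 in starved cells, were far below the SDs of 1.79 and 1.70 of probe sets as dim, so it gives no direction.

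ALDH2 and ALDH1B1 are mitochondrial enzymes that oxidize acetaldehyde. ALDH2 had 5218 and 5905 on 201425_at in nicotine treated and starved ARRB1 siRNA cells, against 6606 and 6744 in nicotine treated and starved control cells. Both ARRB1 siRNA arrays lay below both control siRNA arrays. The log2 difference with ARRB1 siRNA was -0.34 in nicotine treated and -0.19 in serum starved cells, and relative to probe sets of like signal it was -0.42 and -0.24, beside SDs of 0.23 and 0.21. ALDH2 was the 1 expressed gene of the family that differed by over 1 such SD in both ARRB1 siRNA comparisons. Of all expressed genes, 24.6% differed so in nicotine treated and 25.6% in serum starved cells. The share that did so in both was not counted, so this does not set ALDH2 apart. With nicotine it differed by -0.18 in ARRB1 siRNA cells and by -0.03 in control siRNA cells. The ALDH2 signal stayed lower in all 4 comparisons after median centring, quantile normalization and subtraction of the median of like probe sets.

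ALDH1B1 had 394 and 480 on 209646_x_at in nicotine treated and starved ARRB1 siRNA cells, and 473 and 438 in nicotine treated and starved control cells. Its other probe set, 209645_s_at, had 313 and 301 in nicotine treated and starved ARRB1 siRNA cells, and 333 and 379 in nicotine treated and starved control cells. These probe sets had opposite signs in 3 of 4 comparisons, and all 8 differences lay between -0.33 and 0.13.

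ALDH3A2, the fatty aldehyde dehydrogenase of the endoplasmic reticulum, was the most level of the family by brightest probe set, but not on its other probe sets. The brightest, 202054_s_at, had 5157 and 5120 in nicotine treated and starved ARRB1 siRNA cells, and 5091 and 4935 in nicotine treated and starved control cells. A second probe set, 202053_s_at, had 5265 and 4567 in nicotine treated and starved ARRB1 siRNA cells, and 5772 and 4214 in nicotine treated and starved control cells. The third, 210544_s_at, had 1183 and 1047 in nicotine treated and starved ARRB1 siRNA cells, and 1366 and 1168 in nicotine treated and starved control cells. All 3 were higher with nicotine with both siRNAs, by 0.01 to 0.45 on the log2 scale, although the brightest differed by -0.05 in control siRNA cells with centred arrays and by -0.01 in ARRB1 siRNA cells after quantile normalization. The difference of 0.45, that of 202053_s_at in control siRNA cells, stood beside an SD of 0.15. With ARRB1 siRNA, 3 of the 6 differences were higher and 3 lower. Probe sets of a gene share its RNA and the arrays, so they are not replicates.

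ALDH3B1 oxidizes aldehydes from lipid peroxidation. It had 4008 and 4246 on 205640_at in nicotine treated and starved ARRB1 siRNA cells, and 3882 and 3809 in nicotine treated and starved control cells. Its probe set 211004_s_at had 2459 and 2489 in nicotine treated and starved ARRB1 siRNA cells, and 2931 and 2434 in nicotine treated and starved control cells. The difference of 211004_s_at with nicotine in control siRNA cells, 0.27, was above the SD of 0.15 of like probe sets, while that of 205640_at was 0.03. The third, 1565731_at, was dim, at 34.7 to 70.8. It was lower in all 4 comparisons, each time by less than the SD of probe sets as dim, 0.81 to 0.93, so it gives no direction.

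ALDH7A1, or antiquitin, breaks down lysine. It had 1892 and 2041 on 208950_s_at in nicotine treated and starved ARRB1 siRNA cells, against 2144 and 2149 in nicotine treated and starved control cells. The probe set 208951_at had 1523 and 1627 in nicotine treated and starved ARRB1 siRNA cells, against 1601 and 1793 in nicotine treated and starved control cells. The dimmest, 213591_at, had 122 and 168 in nicotine treated and starved ARRB1 siRNA cells, against 134 and 210 in nicotine treated and starved control cells. All 12 differences of the 3 probe sets were below 0, but they share the same arrays and RNA and are not 12 separate observations. The one nearest to 0 was -0.003, on the brightest probe set with nicotine in control siRNA cells. The differences reached -0.65 on 213591_at with nicotine in control siRNA cells, beside an SD of 0.39, and -0.18 on the brightest probe set. After quantile normalization the brightest differed by 0.02 with nicotine when ARRB1 was not targeted, and by 0.04 relative to like probe sets, so that direction depends on the scaling.

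**Figure D2:**
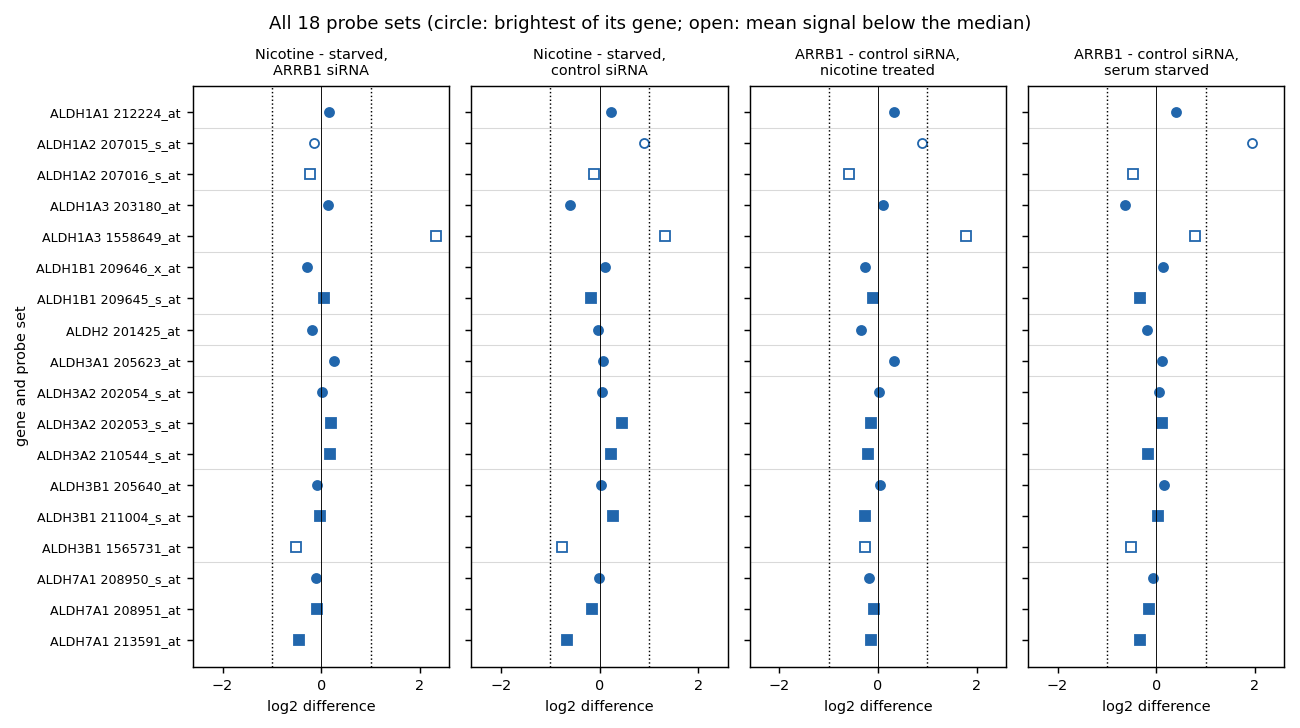
Log2 differences (horizontal axes) of all 18 probe sets in the 4 comparisons (1 panel each, nicotine minus starved or ARRB1 siRNA minus control siRNA), with the brightest probe set of a gene as a circle, the others as squares, and open symbols where the mean signal lies below 66.3. Dotted lines mark 2-fold. The 3 probe sets of ALDH7A1 lie below 0 in every panel, and the points past 2-fold are open symbols of ALDH1A2 and ALDH1A3.

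With nicotine each expressed gene of the family lay within 2-fold on its brightest probe set, with either siRNA. In ARRB1 siRNA cells 0 of 8 expressed genes reached 2-fold, against 1.45% of all expressed genes, and 0 reached 1.5-fold, against 6.86%. Their differences lay between -0.28 (ALDH1B1) and 0.27 (ALDH3A1), with a median of -0.04 beside -0.01 for all expressed genes. In control siRNA cells 0 of 8 reached 2-fold, against 1.05% of all expressed genes, and 1 reached 1.5-fold, against 4.7%. That gene was ALDH1A3, and the median of the 8 was 0.04 beside -0.02 for all expressed genes. In each of these comparisons 1 of the 8 differed from probe sets of like signal by over 1 SD, ALDH2 in ARRB1 siRNA cells and ALDH1A3 in control siRNA cells, where 24.1% and 22.5% of all expressed genes did so. These pairs of arrays share no array, and 5 of the 8 genes had the same sign in both (62.5%), beside 54.8% of all expressed genes.

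With ARRB1 siRNA each expressed gene of the family likewise lay within 2-fold on its brightest probe set. Of all 18 probe sets, 1 dim probe set passed 2-fold in each of the 4 comparisons, that of ALDH1A2 with ARRB1 siRNA in starved cells and 1558649_at of ALDH1A3 in the others. In nicotine treated cells 0 of 8 reached 2-fold, against 2.28% of all expressed genes, and 0 reached 1.5-fold, against 10.2%. The differences ran from -0.34 (ALDH2) to 0.32 (ALDH3A1), with a median of 0.03 beside 0.02 for all expressed genes. In serum starved cells 0 of 8 reached 2-fold, against 1.8%, and 1, ALDH1A3, reached 1.5-fold, against 8.76%. The median was 0.09 beside 0.02 for all expressed genes. Over 1 SD from probe sets of like signal lay 1 of 8 in nicotine treated cells (ALDH2), against 24.6% of all expressed genes, and 3 of 8 in serum starved cells (ALDH1A1, ALDH1A3 and ALDH2), against 25.6%. Across these pairs, which share no array, 6 of 8 genes had the same sign (75%), beside 64.6% of all expressed genes. With 8 genes, counts of 0 to 3 near these shares are not a result about the family.

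**Figure D3:**
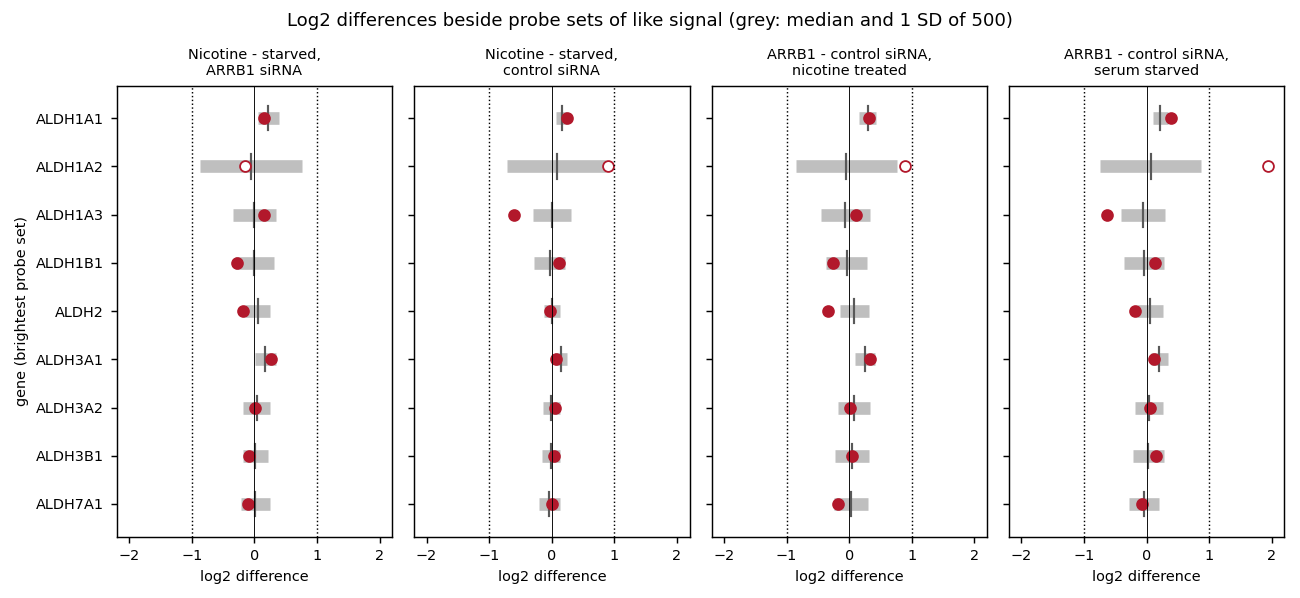
Log2 differences (horizontal axes) of the brightest probe set of each gene (red points, open for the dim ALDH1A2) in the 4 comparisons (1 panel each), beside the median (dark tick) and 1 SD (grey bar) of the 500 probe sets nearest in signal. Dotted lines mark 2-fold. The medians of like probe sets lie above 0 for ALDH1A1 and ALDH3A1, up to 0.29, and ALDH2 lies at or past the left end of its bar in both ARRB1 siRNA panels.

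Interferon-induced genes, by contrast, were far lower with ARRB1 siRNA. Of 8 such genes, 7 were at least 2-fold lower in nicotine treated and 7 in serum starved ARRB1 siRNA cells, with medians of -2.38 and -1.81, where 2.28% and 1.8% of all expressed genes reached 2-fold in either direction. This list was chosen with results of these arrays known, so its counts are a description only. IFIT1, an antiviral RNA-binding protein, had 865 and 1627 in nicotine treated and starved ARRB1 siRNA cells, against 8735 and 6694 in nicotine treated and starved control cells. The ARRB1 siRNA arrays therefore differ from the control siRNA arrays by this program as well as by the siRNA target, and its part in the small differences of the aldehyde dehydrogenase genes was not tested.

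**Figure D4:**
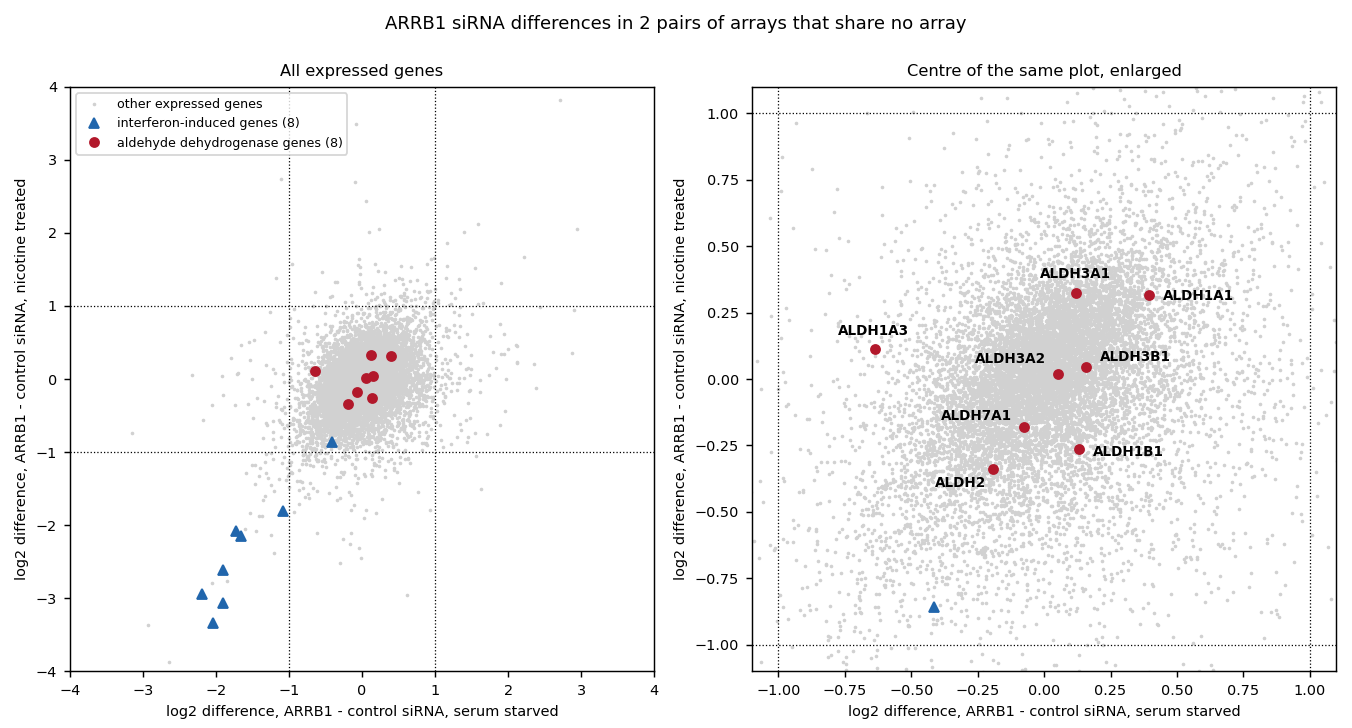
Log2 differences between ARRB1 siRNA and control siRNA cells when serum starved (horizontal axes) and when nicotine treated (vertical axes) for expressed genes (grey), the 8 expressed aldehyde dehydrogenase genes (red circles) and 8 interferon-induced genes (blue triangles), with 1 gene outside the axes of the left panel. The right panel enlarges the centre, dotted lines mark 2-fold, and the red points lie within 2-fold on both axes while 7 triangles lie below -1 on both.

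The nicotine differences were also set against each other between the siRNAs, as ARRB1 siRNA minus control siRNA. ALDH1A3 had the highest value, 0.75, since its nicotine difference was 0.15 in ARRB1 siRNA cells and -0.61 in control siRNA cells, and probe sets of like signal had an SD of 0.40. The other 7 expressed genes lay between -0.39 (ALDH1B1, SD 0.34) and 0.21 (ALDH3A1, SD 0.17). The second probe set of ALDH1A3 gave 0.99, beside an SD of 2.00, with nicotine differences of 2.32 in ARRB1 siRNA and 1.33 in control siRNA cells, and the second probe set of ALDH1B1 gave 0.24. Without replicates none of these values can be told from array error.

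Of 10 other aldehyde dehydrogenase genes, 8 were expressed and 0 of them reached 2-fold in any of the 4 comparisons, where 1.05% to 2.28% of all expressed genes did. ALDH1L1 is a folate enzyme that oxidizes formyltetrahydrofolate. On 215798_at it had 167 and 121 in nicotine treated and starved ARRB1 siRNA cells, against 113 and 69.6 in nicotine treated and starved control cells. It was the one with the largest differences, 0.47 to 0.79, and probe sets as dim had SDs of 0.49 to 0.55. Only the difference with nicotine in ARRB1 siRNA cells, 0.47, was below its SD of 0.50. That with ARRB1 siRNA in nicotine treated cells, 0.56, was close to its SD of 0.55. ALDH18A1, which makes proline precursors, had 2108 with nicotine against 2816 without it in control siRNA cells (-0.42, SD 0.15) and 2448 against 2488 in ARRB1 siRNA cells (-0.02, SD 0.23). ALDH9A1, ALDH4A1, ALDH5A1, ALDH6A1 and ALDH16A1 lay between -0.24 and 0.23 throughout, ALDH1L2 between -0.45 and 0.43, and ALDH3B2 and ALDH8A1 were not expressed.

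The retinoid pathway handles the substrate and product of the ALDH1A enzymes, and 20 of its 24 measured genes were expressed. None of the 20 reached 2-fold with nicotine or with ARRB1 siRNA in serum starved cells. With ARRB1 siRNA in nicotine treated cells 1 of the 20 was at least 2-fold higher and 3 were at least 2-fold lower, against 2.28% of all expressed genes in either direction. The median of the 20 was -0.17 beside 0.02 for all expressed genes, and the list was chosen with results of these arrays known. DHRS9, a retinol dehydrogenase, had 321 in nicotine treated ARRB1 siRNA cells and 147 in control siRNA cells with nicotine, differing by 1.13 (0.54 in the serum starved pair). RBP4, the carrier of retinol in blood, had 499 against 1007 (-1.01, and -0.48 in the serum starved pair). RARRES1 and PLAAT4, both named as responders to retinoic acid, had 1227 against 2509 (-1.03, SD 0.28) and 349 against 743 (-1.09, SD 0.36). In the serum starved pair these differed by -0.23 and -0.63. These 4 genes lie close to the 2-fold limit, and their differences were not recomputed under other scalings. Whether the interferon program, also lower on the ARRB1 siRNA arrays, has a part in them was not tested. Genes of the list went both ways, with 7 of the 20 higher and 13 lower with ARRB1 siRNA in nicotine treated cells. TGM2 was higher with ARRB1 siRNA, by 0.84 in nicotine treated and 0.73 in serum starved cells, beside SDs of 0.23 and 0.21. RARB differed by 0.30 and 0.13 in the same pairs, each less than the SDs of 0.44 and 0.39 of like probe sets. CYP26B1 differed by -0.33 and -0.86, beside SDs of 0.38 and 0.37. STRA6 differed by -0.62 and -0.37, beside SDs of 0.34 and 0.33. Retinoic acid itself was not measured.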

How the data were processed

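RNA of A549 cells was hybridized to 4 arrays, 1 per condition, mapped to conditions by their titles. The deposited values are MAS5 signal intensities, made in GCOS 1.4 as far as the processing notes of the submitters say. The authors scaled each array to a common level, and the log2 transformation and gene centring of the study's methods are not in the table. MAS5 scaling is linear, so it leaves differences in the shape of the signal distribution, which touch the brightest and dimmest probe sets most. Detection calls were not used here.

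Of 54675 probe sets, 62 controls were left out. Of the other 54613, 41091 had 1 gene symbol in a table given with the data, 1801 several and 11721 none. Symbols were updated through gene numbers, of which those of 41037 probe sets were in RefSeq. Log2 differences were computed without a floor in Python 3.11.15 with numpy 2.4.6 and pandas 2.3.3, and drawn with matplotlib 3.10.9. The SD of like probe sets, the 2-fold call and quantile normalization were tried on made-up values, and the differencing itself was not. With 1 array per condition the number of arrays limits the precision. The members and lists were chosen with earlier results of these data known. Named genes are all 9 members, the other aldehyde dehydrogenases, ARRB1, up to 4 expressed genes at 2-fold per list, and those nearest in pattern to the member of widest range. Cell type markers were named from a fixed list. ADH4, ADH5, TGM2, RARB, CYP26B1 and STRA6 were named outside these rules, after their values were seen. Alternatives were other scalings, a floor, other limits and filters, and other choices of probe set.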

Additional observations from a re-analysis of the deposited data

How the results depend on the processing

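Of the alternatives planned, median centring moved the median nicotine difference of the 8 expressed genes in control siRNA cells to -0.059, against 0.04, and the median over a gene's probe sets moved the median ARRB1 siRNA difference in nicotine treated cells to -0.13, against 0.03. The count of genes at 2-fold stayed at 0 in every comparison under median centring, quantile normalization and both settings that left out probe set types. It was also 0 under the floor, the filter at the 75th percentile and the 3-fold limit, which could not raise it. It became 1 with nicotine in control siRNA cells at 1.5-fold (ALDH1A3), 1 with nicotine in ARRB1 siRNA cells with the median over probe sets (ALDH1A3), and 1 for ARRB1 siRNA when starved, at 1.5-fold (ALDH1A3), with no filter and with the filter at the 25th percentile (ALDH1A2 in both). Subtracting the median of like probe sets, chosen after seeing the data, left all 4 counts at 0. Of 300 values of single genes under the alternatives, 30 moved by more than the SD of like probe sets. Signs changed for 9 of 45 values with centred arrays, 7 with the median over probe sets (ALDH1A3 among them), 6 after quantile normalization, 6 relative to like probe sets and 4 without _x_at probe sets (ALDH1B1). ALDH1A2, ALDH1B1 and ALDH3A2 have no value when _x_at and _s_at probe sets are both left out. Centring shifts every probe set of a comparison alike, by 0.095 downward for nicotine in control siRNA cells. The median of all expressed genes there moved from -0.02 to -0.12, so the family kept its place beside them. The cause of the changes under the other settings was not tested. Each of the 4 comparisons sets 1 array against 1, so within a comparison no pairing could be fitted and no array left out. A fit of nicotine over both siRNAs, or of siRNA over both treatments, which takes the difference between pairs as error, was not made.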

Other observations

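Alcohol dehydrogenases supply aldehydes to this family. Of 7 measured genes, 2 were expressed, ADH5 and ADH4, which are named after their values were seen. ADH5, which handles formaldehyde bound to glutathione, had 4253 and 3506 in nicotine treated and starved ARRB1 siRNA cells, and 3429 and 3736 in nicotine treated and starved control cells, differences of -0.12 to 0.31. ADH4 had 81.6 and 70.5 in nicotine treated and starved ARRB1 siRNA cells, and 117 and 81.4 in nicotine treated and starved control cells.

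The expressed genes with a profile across the 4 arrays nearest to that of ALDH1A3 were RASA3, ZBTB37, CYP4F11, RPUSD4 and PLCL2, by the root mean square difference of log2 signals centred on each gene's mean, which was 0.0057 to 0.051. RASA3 had 190 and 173 in nicotine treated and starved ARRB1 siRNA cells, and 175 and 269 in nicotine treated and starved control cells. With 4 arrays and 12521 genes such likeness is a description only.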
